A study of Drosophila melanogaster with 4 samples.

Results

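Odorant binding protein genes of Drosophila melanogaster were taken as every gene whose current symbol begins with Obp, together with lush, and were described in whole females after different matings. The RefSeq gene table lists 52 such genes. Of these, 36 had a probe set of their own among 10844 genes with an unambiguous probe set, and each of the 36 was read by 1 probe set. The other 16 were not analysed here as single genes. A gene passed the filter on low values when its highest column reached -0.18, the middle value of the whole table. This left 11 odorant binding protein genes among 6201 genes, and the 25 below it are described apart as weak.

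Odorant binding proteins are small secreted proteins whose fold is held by disulphide bridges between conserved cysteines, and which carry hydrophobic molecules in a pocket. In the antenna and in taste hairs they are secreted into the fluid around the sensory neurons by support cells, and lush is the best known of them, because it is needed for the response to the male pheromone cis-vaccenyl acetate. Others of the family are made away from sense organs, in the fat body, in haemolymph and in the male reproductive tract, and the minus-C subfamily lacks a pair of the conserved cysteines.

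The study asked which female genes respond to mating and to what the male passes. There were 4 groups of whole females from an inbred wild-type Canton S stock, aged 3 to 4 days, reared at 25 °C on a 12:12 h light and dark cycle. In the first, females had mated with wild-type Canton S males, which pass sperm and accessory gland proteins (Acps). In the second they had mated with spermless sons of tudor, whose fathers were Canton S and whose mothers carried bw sp tud1, and which pass Acps without sperm. In the third they had mated with DTA-E males, a transgenic stock in a Canton S background that makes no sperm and no Acps from the main cells, which are 96% of the secretory cells of the gland. Virgin females were the unmated group. Mated females were frozen 1 to 3 h after mating. Per the labels, 50 flies per treatment were divided between 2 RNA extractions, each hybridised to 2 chips of the Affymetrix Drosophila GeneChip.

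The deposited table has 1 column per group, so no replicate values, errors or tests were available, and every difference below is between 2 columns. Values are on a log scale with a mean near 0 in each column. The base is not stated and was read as log2, so that a difference of 0.58 is 1.5-fold, or 1.79-fold if the base were e. Columns were shifted by at most 0.05 to share a median. Where a gene had more than 1 probe set (294 genes), these gave slightly different answers for the same pair of columns, with an SD of 0.08 to 0.09 depending on the pair. This probe set SD serves as a scale of measurement noise, and variation from 1 pool of flies to another lies outside it. Levels of different genes rest on different probes and are not compared. In whole flies, fewer cells of a type and less RNA per cell cannot be told apart.

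Pairs of columns correlated at a Pearson r of 0.993 to 0.996 over probe sets. Spread over probe sets was a little smaller in the columns after wild-type males (SD 1.03) and spermless males (SD 1.03) than after DTA-E males (SD 1.07) and in virgin females (SD 1.07), and weak probe sets were higher in the first pair. The 23 foreign control probe sets averaged -1.19 after wild-type males, -1.14 after spermless males, -1.26 after DTA-E males and -1.26 in virgin females. The yolk protein genes Yp1, Yp2 and Yp3 had values of 4.75 to 5.67 across the columns. All 11 male accessory gland markers were weak, at -1.74 to -0.64. Of 7 testis markers, 2 passed the filter, and neither differed from virgin females by more than 0.09 in any mated column. Actin probe sets at the 3' end exceeded those at the 5' end by 1.97 after wild-type males, 2.02 after spermless males, 2.26 after DTA-E males and 1.95 in virgin females.

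The 11 genes that passed the filter were spread over more of the scale between groups than genes at large. Their range over the 4 columns had a median of 0.31, beside 0.12 over all 6201 genes. The genes at large were not matched for level. A mean value of 1 or more was held by 5 of the 11 members and by 1664 of the 6201 genes. Of those 1664 genes, 41.0% exceeded the probe set SD in wild-type minus virgin, beside 34.0% of all genes. The member with the widest range was Obp99a (0.96), followed by Obp99c (0.55), Obp44a (0.44), Obp19d (0.39) and Obp19c (0.34). At the other end were Obp18a (0.11), Obp28a (0.11) and Obp19b (0.09). A larger range than that of Obp99a was found in 0.855% of genes. The column after wild-type males was the lowest of the 4 for 7 of the 11 members, as it was for 26.6% of all genes that passed. Those 7 were Obp99c, Obp44a, Obp19d, Obp56d, Obp83b, Obp28a and Obp18a. It was the highest of the 4 for 0 of 11, a place it held for 29.1% of all genes. The DTA-E column was the lowest for Obp19b, Obp19c and Obp56e, beside 20.9% of all genes, and the spermless column for Obp99a alone, beside 26.0%. The virgin column was the lowest for 0 of 11, beside 26.4%, and the highest for Obp99a, Obp99c, Obp19c and Obp56e, beside 21.1%. The spermless column was the highest for 4 (beside 23.0%) and the DTA-E column for 3 (beside 26.8%). With the spermless column set aside, 8 of 11 were lowest after wild-type males, beside 36.3%, and with the DTA-E column set aside 7 of 11 were, beside 31.2%.

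Muscle transcripts, listed after their values were seen, differed widely between these columns. Act88F, the flight muscle actin gene, was at 0.10 after wild-type males, 3.06 after spermless males, 1.13 after DTA-E males and 1.76 in virgin females. All 3 muscle markers had the wild-type column lowest and the spermless column highest, and against virgin females fln was at -1.33 and TpnC4 at -1.38 after wild-type males. The part of muscle content in the values of the odorant binding protein genes was not tested.

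**Figure D1:**
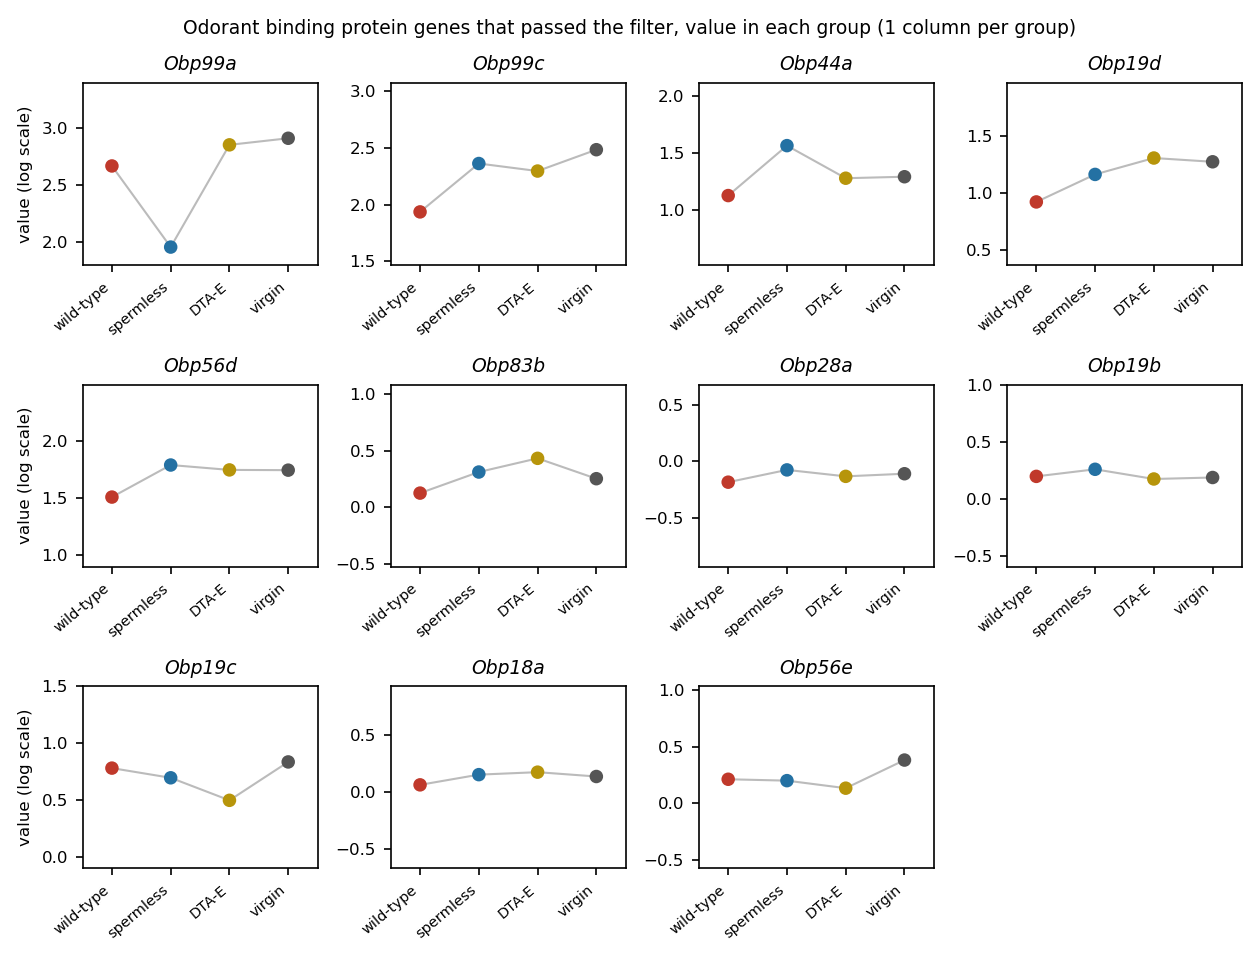
Value of each odorant binding protein gene that passed the filter (y axis, log scale, all panels spanning the same height) after wild-type, spermless and DTA-E matings and in virgin females (x axis). Each point is 1 column and lines only guide the eye. Obp99a dips to 1.95 after spermless males, while Obp99c, Obp44a, Obp19d and Obp56d are lowest after wild-type males.

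Obp99a, a minus-C member on chromosome arm 3R, was lower after mating with spermless males than in any of the other groups. Its value was 2.67 after wild-type males, 1.95 after spermless males, 2.85 after DTA-E males and 2.91 in virgin females. The spermless column stood apart and the other 3 lay within 0.24 of each other. The difference was -0.96 for spermless minus virgin, which is 1.94-fold read as log2 and 2.60-fold read as natural log. For spermless minus DTA-E it was -0.90, the lowest of all 6201 genes. It was also the lowest after quantile normalization (-0.90) and after removal of an intensity trend (-0.85). The other ways of processing gave the same rank but say little about it. A constant shift of columns cannot alter a rank, and Obp99a has 1 probe set, so taking the brightest leaves its value unchanged. Wild-type minus spermless gave 0.71, rank 6 from the top. Against virgin females the other matings gave -0.24 after wild-type males and -0.06 after DTA-E males, so the wild-type difference exceeded the probe set SD and the DTA-E difference did not.

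Other transcripts also differed in the spermless column. Of the 5 measured fat body markers, Lsp2, which encodes a larval serum storage protein, was lower there than in virgin females by -0.58. Against virgin females Lsp2 was also at -0.46 after wild-type males and at -0.21 after DTA-E males. Its wild-type minus spermless difference was 0.12, beside 0.71 for Obp99a. The marker apolpp, the lipophorin precursor gene, was at -0.46 in spermless minus virgin. For fit, a female-biased secreted protein gene of the fat body, the value was 2.13 after wild-type males, 1.27 after spermless males, 2.09 after DTA-E males and 1.02 in virgin females. Lsp2, apolpp and fit were thus lower after spermless than after wild-type and DTA-E males, as Obp99a was, although fit was higher after spermless males than in virgin females. Fbp1 was higher by 0.10 and the weak marker Fbp2 by 0.12 in spermless minus virgin. Muscle transcripts went the opposite way, with Act88F at 1.31, fln at 1.07 and TpnC4 at 0.53 in that pair. The part of fat body content in the Obp99a difference was not tested.

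**Figure D2:**
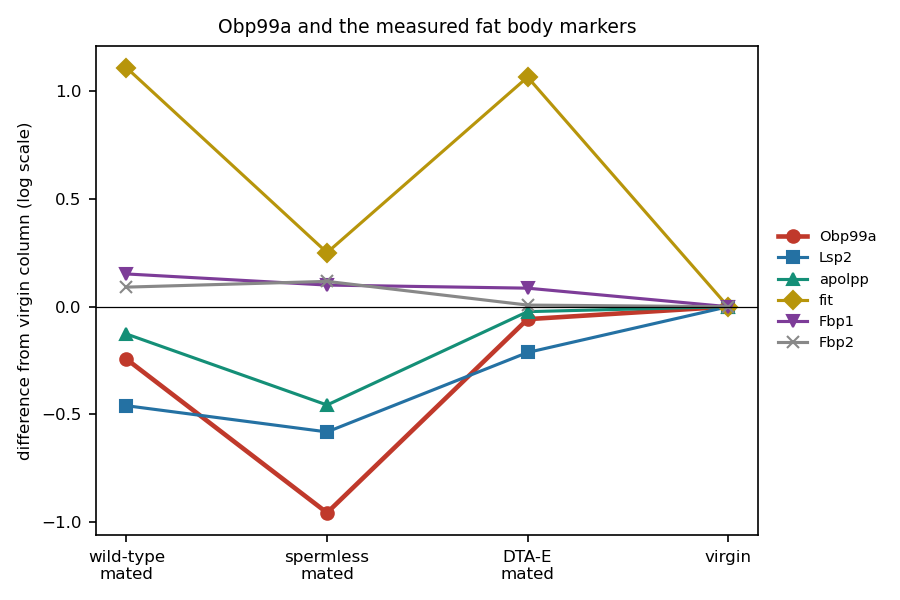
Difference from the virgin column (y axis, log scale) of Obp99a and of the 5 measured fat body markers after each mating (x axis; 1 column per group, lines guide the eye). Obp99a is at -0.96 after spermless males and apolpp at -0.46, whereas fit is at 1.11 after wild-type males and 1.07 after DTA-E males and at 0.25 after spermless males. Lsp2 is at -0.58 after spermless males and at -0.46 after wild-type males.

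Obp99c, which lies 5 genes away from Obp99a in the RefSeq gene order, had a different profile. It is also a minus-C member. Its value was 1.94 after wild-type males, 2.36 after spermless males, 2.29 after DTA-E males and 2.48 in virgin females. All mated columns were below the virgin column, and the wild-type column was the lowest. Wild-type minus virgin was -0.55, which is 1.46-fold read as log2 and just short of the 1.5-fold line, at rank 71 from the bottom of 6201 genes. Smaller differences from virgin females were found with the other matings, at -0.12 (spermless) and -0.19 (DTA-E). In wild-type minus spermless it differed by -0.43 and in wild-type minus DTA-E by -0.36, whereas spermless minus DTA-E, at 0.07, lay within the probe set SD.

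The remaining members of that group of neighbours were weak. Obp99b, known from the male fat body, was at -0.54 after wild-type males, -0.53 after spermless males, -0.62 after DTA-E males and -0.52 in virgin females. Obp99d was lowest at -1.04 (DTA-E) and highest at -0.93 (spermless). Of these 4 neighbouring genes, Obp99a had its lowest value after spermless males, Obp99c after wild-type males, and the weak pair after DTA-E males.

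Obp44a, a minus-C member on 2R, was higher after spermless males than in the other groups and lower after wild-type males. Its value was 1.13 after wild-type males, 1.56 after spermless males, 1.28 after DTA-E males and 1.29 in virgin females. Spermless minus virgin was 0.27 and spermless minus DTA-E 0.29. In wild-type minus spermless it differed by -0.44, rank 138 from the bottom, and in wild-type minus virgin by -0.17. The DTA-E and virgin columns were 0.01 apart. Thus Obp44a and Obp99a, of the same subfamily, lay on opposite sides of the virgin column after spermless males. Obp8a, the sixth measured minus-C gene beside these 3, Obp99b and Obp99d, was weak at -0.91 to -0.73.

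Genes known from the adult antenna were represented by 9 measured members, of which Obp19d, Obp56d, Obp83b and Obp28a passed the filter. These 4 were lower in the wild-type column than in each of the other 3, by -0.39 to -0.05. The wild-type column was the lowest of the 4 for 26.6% of all genes that passed. For Obp28a the gap to virgin females and to the DTA-E column was within the probe set SD. Obp19d, known from antenna and taste hairs, showed the widest range of the 4. Its value was 0.92 after wild-type males, 1.16 after spermless males, 1.30 after DTA-E males and 1.27 in virgin females. Wild-type minus DTA-E was -0.39, rank 45 from the bottom, and wild-type minus virgin was -0.35. With spermless males the difference from virgin females was -0.11, and with DTA-E males it was 0.03.

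Obp56d, abundant in the antenna, had a value of 1.51 after wild-type males, 1.79 after spermless males, 1.75 after DTA-E males and 1.75 in virgin females. The other 3 columns were within 0.05 of each other, and the wild-type column was below them by -0.28 to -0.24. Obp83b, an antennal gene whose product is found in the trichoid hairs that also contain lush, had a value of 0.13 after wild-type males, 0.31 after spermless males, 0.43 after DTA-E males and 0.25 in virgin females. Of the 4 antennal genes that passed, it was the 1 that differed from the virgin column by more than the probe set SD after DTA-E males, by 0.18, rank 199 from the top. Wild-type minus DTA-E was -0.31 and wild-type minus spermless was -0.18. Obp28a was near the filter, with values of -0.18 after wild-type males, -0.07 after spermless males, -0.13 after DTA-E males and -0.11 in virgin females. As deposited, it reached the filter in 3 of its 4 columns, all but the wild-type one, which was at -0.21. It was thus kept through the groups where it was higher, which limits its part in the counts of members lower after wild-type males.

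The 5 weak antennal genes were Obp19a, Obp59a, Obp69a, Obp84a and lush, and of these Obp69a was at 0.14 in DTA-E minus virgin. In wild-type minus virgin, Obp59a (0.08), Obp69a (0.06), Obp84a (0.05) and lush (0.05) were higher and Obp19a (-0.03) was lower. Of all weak genes, 86.0% were higher in that pair. The value of lush was -1.01 after wild-type males, -0.97 after spermless males, -1.06 after DTA-E males and -1.06 in virgin females, which is within the range of weak probe sets in each column. Orco, the shared co-receptor gene of olfactory neurons, was weak too, with -0.43 after wild-type males, -0.40 after spermless males, -0.46 after DTA-E males and -0.46 in virgin females. Snmp1, the gene of a membrane protein of pheromone-sensing neurons, lay between -0.70 and -0.61. The photoreceptor arrestin gene Arr1 had a value of 1.84 after wild-type males, 2.15 after spermless males, 1.99 after DTA-E males and 1.85 in virgin females. In wild-type minus virgin, Arr1 and Arr2 were at -0.01 each, whereas Obp19d was at -0.35 and Obp56d at -0.24. In wild-type minus spermless, Arr1 was at -0.31 and Arr2 at -0.16. The share of head tissue in any of these differences was not tested.

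On the X chromosome, Obp19a to Obp19d directly follow each other in the gene order. Obp19c was lowest after DTA-E males. Its value was 0.78 after wild-type males, 0.69 after spermless males, 0.50 after DTA-E males and 0.83 in virgin females. DTA-E minus virgin was -0.34, rank 79 from the bottom, and wild-type minus DTA-E was 0.28, rank 25 from the top. Its neighbour Obp19d was instead at 0.03 in DTA-E minus virgin. Obp19b had values of 0.20 after wild-type males, 0.26 after spermless males, 0.17 after DTA-E males and 0.19 in virgin females, with no pair further apart than 0.09. The weak Obp19a ranged from -0.61 after wild-type males to -0.55 after DTA-E males.

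Obp18a, also on the X chromosome, had values of 0.06 after wild-type males, 0.15 after spermless males, 0.17 after DTA-E males and 0.13 in virgin females. Its widest gap, wild-type minus DTA-E at -0.11, was close to the probe set SD of 0.09.

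Genes whose products are known from seminal fluid were represented by Obp56e, Obp56g and Obp8a, and each mated column was set beside the virgin one. Obp56e passed the filter and was lower in all mated columns. Its value was 0.21 after wild-type males, 0.20 after spermless males, 0.13 after DTA-E males and 0.38 in virgin females. The differences from virgin females were -0.17 after wild-type males, -0.18 after spermless males and -0.25 after DTA-E males. The mated columns were within 0.08 of each other, a gap below the probe set SD. Obp56g, a protein of the ejaculatory bulb that takes part in forming the mating plug, was weak and lay lower in mated columns as well, at -0.65 after wild-type males, -0.56 after spermless males, -0.59 after DTA-E males and -0.42 in virgin females. In none of the mated columns was the value of Obp56e or Obp56g above that of virgin females. Obp8a was higher by 0.11 after wild-type and 0.16 after spermless males, and lower by -0.03 after DTA-E males. The median of all 4643 weak genes was at 0.06 for wild-type minus virgin and 0.10 for spermless minus virgin.

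Obp56d and Obp56e have 1 other gene between them on 2R, and the weak Obp56a and Obp56c belong to the same run of neighbours. Obp56a was the weak member with the widest range. It was at -0.70 after wild-type males, -0.26 after spermless males, -0.41 after DTA-E males and -0.40 in virgin females. Wild-type minus spermless was -0.44, and wild-type minus virgin was -0.30, the lowest among weak members. The wild-type column was thus the lowest for Obp56a and Obp56d, whereas for Obp56e and Obp56c the lowest was the DTA-E column.

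The 25 weak members had medians of -0.81 after wild-type males, -0.76 after spermless males, -0.89 after DTA-E males and -0.89 in virgin females. Like weak genes at large, most were slightly higher in the wild-type and spermless columns than in virgin females. In wild-type minus virgin, 20 of 25 were higher, beside 86.0% of all weak genes, with a median of 0.06 that equals the median of 0.06 over all weak genes. For spermless minus virgin 22 of 25 were higher, beside 93.8%, with medians of 0.11 and 0.10. After DTA-E males 16 of 25 were higher than in virgin females, beside 52.4%, with medians of 0.01 and 0.00. In wild-type minus spermless 23 of 25 were lower, beside 79.5%. The weak members that departed furthest from these medians were Obp56a and Obp56g, both downward in wild-type minus virgin. Obp57c was the lowest weak member in spermless minus virgin, at -0.15. Obp73a, the weak member nearest to the filter, reached -0.19 after wild-type males, against -0.30 in virgin females.

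**Figure D3:**
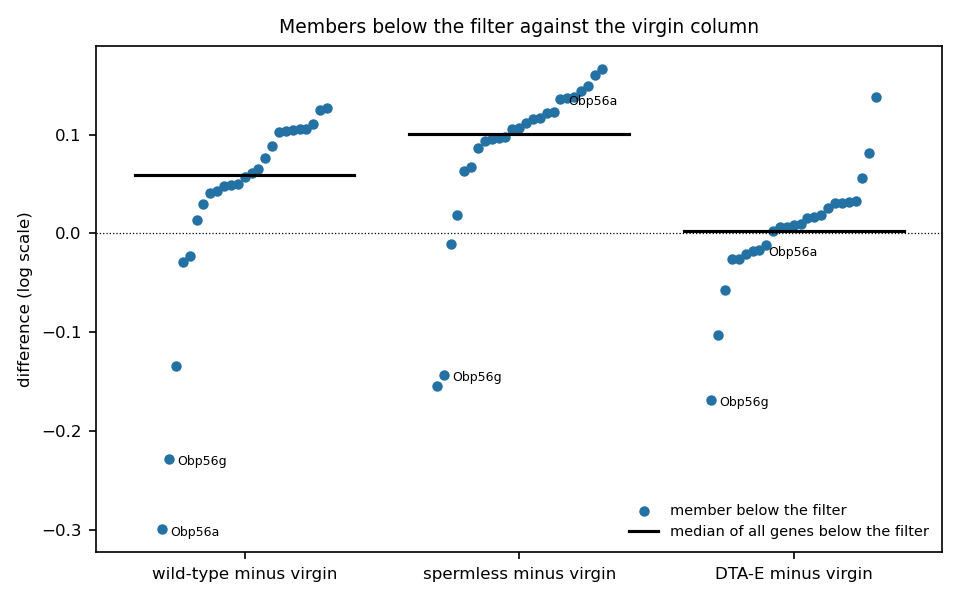
Difference from the virgin column (y axis, log scale) of the 25 members below the filter after each mating (x axis), sorted within each mating, with the median of all 4643 genes below the filter as a black line. Most points lie near that line, at 0.06 after wild-type males and 0.10 after spermless males, while Obp56a (-0.30) and Obp56g (-0.23) lie below it after wild-type males.

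Mating with wild-type males was compared with no mating. In wild-type minus virgin, 10 of the 11 members that passed were lower, beside 46.4% of all genes that passed, and Obp19b was at 0.01. Their median was -0.17, beside 0.01 over all genes. The lowest were Obp99c (-0.55), Obp19d (-0.35), Obp99a (-0.24) and Obp56d (-0.24). None of them reached 1.5-fold in this pair, in which 1.0% of all genes were lower and 0.177% higher by that much. In absolute size, 7 of the 11 exceeded the probe set SD of 0.09, beside 34.0% of all genes. Of the 5 members with a mean value of 1 or more, all 5 were lower, beside 59.4% of the 1664 genes with such a value. Hybridisation controls averaged 0.16 higher in the wild-type column. In the other pairs they differed by 0.24 (wild-type minus DTA-E), 0.17 (spermless minus DTA-E) and 0.09 (spermless minus virgin). The gap was 0.06 for wild-type minus spermless and -0.08 for DTA-E minus virgin.

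Spermless males pass Acps without sperm. In spermless minus virgin, 5 of 11 were lower, a share near the 47.7% of all genes, and the median was 0.02, beside 0.00. This median turned to -0.04 in the columns as deposited, where 8 of 11 were lower, and to -0.01 under quantile normalization and after removal of an intensity trend, where 7 of 11 were. The shift added 0.05 to the spermless column, so as deposited every gene lies lower by that much in this pair. Shares over all genes in these settings are not given here, so the counts are not read as a result about the family. Obp99a was the member past 1.5-fold, downward, as were 0.290% of all genes, and 0 were past it upward, as were 0.50%. Obp56e (-0.18) and Obp19c (-0.14) were lower by more than the probe set SD of 0.08, as were Obp99a, Obp99c and Obp19d, and Obp44a (0.27) was higher, which makes 6 of 11, beside 36.6% of all genes.

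DTA-E males pass neither sperm nor main-cell Acps. In DTA-E minus virgin 7 of 11 were lower, beside 45.5% of all genes, with a median of -0.01, beside 0.01. Obp19c (-0.34), Obp56e (-0.25), Obp99c (-0.19) and Obp83b (0.18) exceeded the probe set SD of 0.08, which is 4 of 11, beside 27.6% of all genes. None reached 1.5-fold, in a pair where 0.387% of genes were lower and 0.194% higher by that much. The gap between the ends of actin was largest in the DTA-E column, and whether this touches Obp19c was not tested.

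The addition of sperm was read from wild-type minus spermless, although these males also differ in genotype. Sperm, male genotype and pool of flies cannot be told apart with 1 column per group. In this pair 8 of 11 members were lower, beside 45.3% of all genes, and the median was -0.11, beside 0.01. Obp44a (-0.44), Obp99c (-0.43), Obp56d (-0.28), Obp19d (-0.24) and Obp83b (-0.18) were lower. Obp99a was higher by 0.71 and passed 1.5-fold, as did 0.0968% of all genes in that direction, while 0 of 11 passed it downward, as did 1.10%. The probe set SD was exceeded by 7 of 11, beside 29.4%. Because the spermless column is shared, this value is the same low spermless value of Obp99a seen from the other side.

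Wild-type minus DTA-E sets both sperm and main-cell Acps against neither, with male genotype and pool of flies differing as well. In this pair 8 of 11 were lower, beside 51.7% of all genes, and the median was -0.15, beside 0.00. The lowest were Obp19d (-0.39), Obp99c (-0.36), Obp83b (-0.31) and Obp56d (-0.24), and Obp19c was higher by 0.28. Of the 11, 8 exceeded the probe set SD of 0.09, beside 33.2% of all genes, while 0 reached 1.5-fold, as 0.387% of all genes did downward and 0.129% upward. Of all genes with a mean value of 1 or more, 72.7% were lower in this pair.

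Acps without sperm were read from spermless minus DTA-E, where male genotype and pool of flies differ too and cannot be told apart from Acps. Here 4 of 11 were lower, beside 49.1% of all genes, and the median was 0.06, beside 0.00. Obp99a stood alone past 1.5-fold downward, as 0.0645% of all genes did, which is 4 genes, and 0 members passed it upward, as 0.516% did. The probe set SD was exceeded by 5 of 11, beside 35.6%. Obp44a (0.29) and Obp19c (0.20) were the highest members, and Obp19d (-0.14) and Obp83b (-0.12) were lower. The 6 pairs share columns, so their values are not independent of each other.

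**Figure D4:**
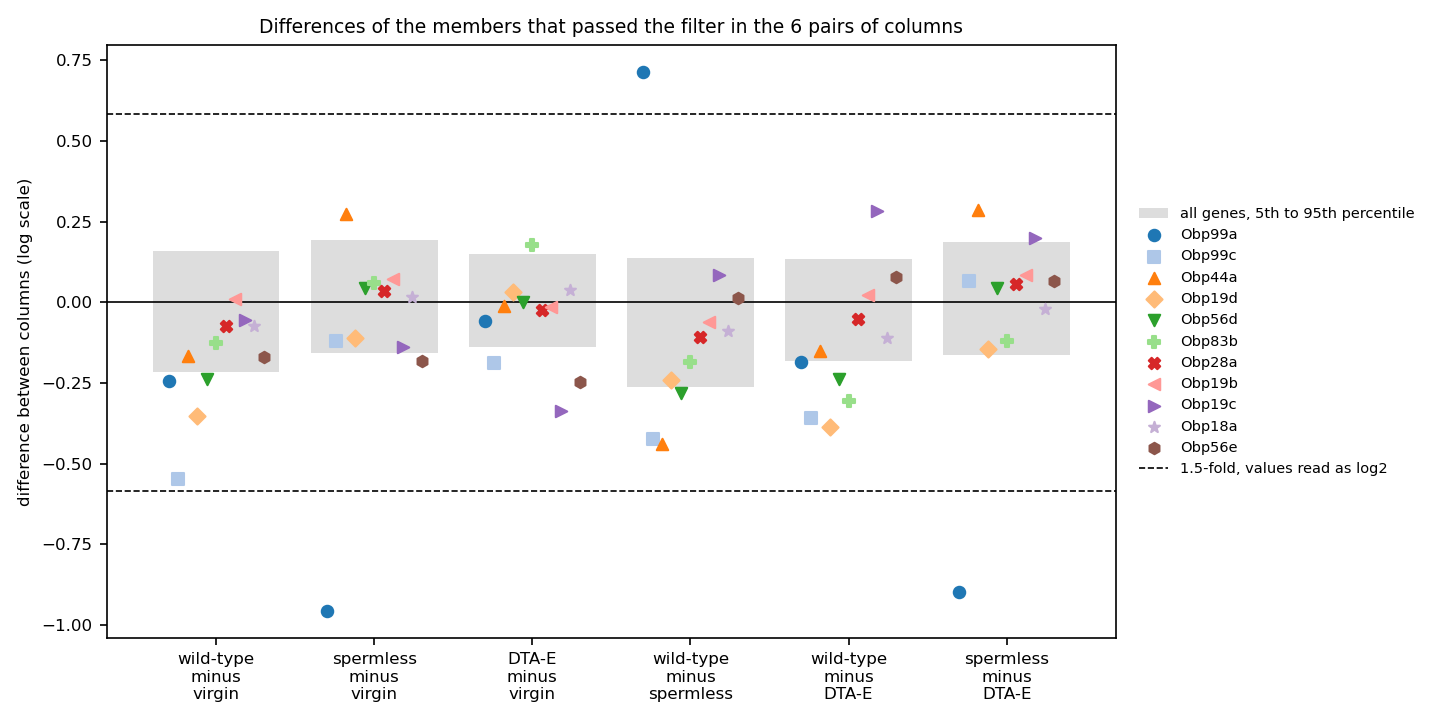
Difference between columns (y axis, log scale) of the 11 members that passed the filter in each of the 6 pairs of columns (x axis). Grey blocks span the 5th to 95th percentile of all 6201 genes and dashed lines mark 1.5-fold with values read as log2. Obp99a crosses the dashed lines in the 3 pairs that include the spermless column, at -0.96, 0.71 and -0.90, and Obp99c in wild-type minus virgin is just inside at -0.55.

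Other genes of chemical sensing were set beside the family. They were odorant, gustatory and ionotropic receptors, sensory neuron membrane proteins, the CheA and CheB families, the Npc2 family of lipid carriers and chemosensory proteins. Of 145 measured, 19 passed the filter, and in no pair of columns did any of these 19 reach 1.5-fold. Over all genes that passed, the share doing so in 1 direction was 0.0645% to 1.10% depending on the pair, so none is near the share at large. Receptors contributed 11 of 124. Some of these reached the filter only through the wild-type column, where weak probe sets were higher, so no direction is given for those. Or22c, Or59b, Or9a, Gr2a, Gr5a, Gr68a and Gr8a also reached it in virgin females. Each was higher in wild-type minus virgin, by 0.06 (Or59b) to 0.22 (Gr68a), a pair in which 46.4% of all genes that passed were lower.

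Among the carriers, all 5 Npc2 genes that passed were lower in wild-type minus virgin, beside 46.4% of all genes, with a median of -0.09. All 5 were lower in wild-type minus spermless, beside 45.3%, with a median of -0.13. In the first pair Npc2a, Npc2b and Npc2h lay within the probe set SD, and in the second pair Npc2a and Npc2b did. Npc2e had a value of 0.24 after wild-type males, 0.54 after spermless males, 0.37 after DTA-E males and 0.63 in virgin females. Npc2h was at 1.75 after wild-type males, 2.09 after spermless males, 1.87 after DTA-E males and 1.84 in virgin females, with the spermless column highest and the wild-type column lowest, as for Obp44a. EbpIII, a chemosensory protein gene named for the ejaculatory bulb, had values of 1.76 after wild-type males, 2.11 after spermless males, 1.95 after DTA-E males and 1.87 in virgin females. The 2 other ejaculatory bulb genes measured, Ebp and EbpII, were weak in all columns, at -1.41 to -1.26.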

How the data were processed

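Expression was measured on Affymetrix Drosophila GeneChips in 4 groups of whole females. Per the labels, each treatment had 4 chips. The values deposited by the authors, 1 column per treatment, are on a log scale read here as log2. The base, the image analysis, the scaling and the way chips were combined are not given in the sources used here.

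Of 14009 probe sets, 12443 had 1 gene symbol, 326 several and 1196 none, and 44 were controls. A RefSeq gene table for Release 6 gave current symbols for 12394 Entrez identifiers. Probe sets were kept when their highest column reached the median of all values. Columns were shifted to the median of the virgin column over the 6534 kept probe sets, and the probe sets of a gene were averaged. Genes that passed are named with all 4 values, and weak members by range and count, with the 4 of widest range (Obp56a, Obp56g, Obp8a, Obp58d, the last from -1.23 in virgin females to -1.06 after spermless males) open to naming. Others were named after their values were seen. Members and lists were chosen with earlier results of these data known.

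With 1 column per group no test was made, and the number of arrays limits the precision. The fold threshold was 1.5. A list of taste organ members had no measured gene. No sequence table was used. The calculation was tested on simulated data. Calculations ran in Python 3.11.15 with pandas 2.3.3 and numpy 2.4.6, lowess in statsmodels 0.14.6 and plots in matplotlib 3.10.9.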

Additional observations from a re-analysis of the deposited data

Results flagged for a closer look

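A probe set annotated to both Obp57d, a taste organ gene, and Cpr57A, a cuticle protein gene, was left out of the comparisons because its signal cannot be given to either. It passed the filter on low values and was higher after spermless males than in virgin females. Its value was 0.32 after wild-type males, 0.42 after spermless males, 0.30 after DTA-E males and 0.33 in virgin females. The gap of the spermless column to virgin females is close to the 0.08 SD between probe sets of 1 gene.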

How the results depend on the processing

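Alternatives were no filter or a stricter one at the 75th percentile, deposited columns without a shift, quantile normalization, a gene read by its brightest probe set, a lowess fit (fraction 0.3, 3 iterations) taken off each difference, and a 2-fold threshold. Of 160 values for the family under them, 142 stayed within the probe set SD or, for counts, within 1.5 times, as did all 264 single-gene values. The sign turned for 6 of 66 single-gene differences in the columns as deposited, for 6 after lowess and for 5 under quantile normalization. Each member has 1 probe set, so taking the brightest could not change any value. That setting supplies 24 of the 160 family values and 66 of the 264 single-gene values. Another 66 single-gene values, those in the columns as deposited, could not leave the probe set SD either. The shift is at most 0.05, below the smallest SD of 0.08. At 2-fold, the 9 counts that were 0 at 1.5-fold could not change. At 2-fold, the count of 1 became 0 for spermless minus virgin, wild-type minus spermless and spermless minus DTA-E. Without the filter, 36 members were counted. The medians then were 0.0024 for wild-type minus virgin and -0.0009 for wild-type minus DTA-E, and the members lower numbered 18 in both of these pairs, 12 for spermless minus virgin, 16 for DTA-E minus virgin, 27 for wild-type minus spermless and 13 for spermless minus DTA-E. Both the members counted and the shift of the columns differ in this setting. At the main shift, the 36 members had a median of 0.035 for wild-type minus virgin and 0.044 for wild-type minus DTA-E. The members lower were then 15 in each of these pairs. No further cause was tested. The stricter filter left 6 members. The medians then were -0.10 for spermless minus virgin and -0.25 for wild-type minus spermless. The members lower numbered 6 of 6 for wild-type minus virgin, 5 for wild-type minus DTA-E, 4 for wild-type minus spermless and 2 for spermless minus DTA-E. Shares over all genes, weak ones included or under the stricter filter, are not given here, so these counts are not read as results about the family. In the main setting, genes with a mean value of 1 or more were lower in 59.4%, 72.7%, 48.6% and 66.2% in these pairs, in the same order. In the columns as deposited, 8 members rather than 5 were lower for spermless minus virgin, a pair in which all genes then lie lower by 0.05. The count of members lowest after wild-type males, 7, became 8 without the spermless column and stayed at 7 without the DTA-E column, both chosen after seeing the data, when 36.3% and 31.2% of all genes were lowest there. Obp99a kept rank 1 from the bottom in spermless minus DTA-E, at -0.96 to -0.85, though a constant shift of columns cannot alter a rank. Obp99c in wild-type minus virgin was between -0.58 and -0.48. No leaving out of replicates and no paired analysis was possible because each group has 1 column. For weak members, signal near background limits what small upward differences show, since weak probe sets were shifted upward as a whole in the wild-type and spermless columns.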
